A study of Homo sapiens with 12 samples.

Results

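The alpha-tubulin genes encode the alpha subunit of the tubulin heterodimer, the building block of microtubules, and vincristine (VCR) is a vinca alkaloid that binds tubulin and blocks microtubule assembly. The members were the 7 genes TUBA1A, TUBA1B, TUBA1C, TUBA3D, TUBA4A, TUBA8 and TUBAL3, chosen by name from the 60671 genes of one expression table. The rule used no measured value, but the choice was made with earlier results of these data known. The table holds RNA from cells labelled Jurkat, a human T cell leukemia line, in 4 groups of 3 libraries after 48 h. NC+DMSO and NC+VCR are control cells, given as wild type by the labels and described in the study's methods as carrying a GFP vector. PTPN21+DMSO and PTPN21+VCR are cells overexpressing PTPN21, a non-receptor tyrosine phosphatase. DMSO is the solvent control. No source used here gives the VCR dose for the sequenced cells, and nothing states whether the 3 libraries of a group came from separate cultures, so p-values measure only the spread between these libraries.

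Alpha- and beta-tubulin are folded by chaperones and cofactors into a dimer, and the amount of their mRNA is known to respond to the amount of free dimer. In this autoregulation the protein TTC5 recognises the first residues of tubulin as it leaves the ribosome and, with SCAPER and the CCR4-NOT deadenylase, directs the decay of the mRNA. The other end of most alpha-tubulins is a tyrosine that enzymes remove and add back. TUBA1A, TUBA1B and TUBA1C are close paralogs, TUBA1A being known as the form of developing neurons, TUBA1B as a form made in most cells, and TUBA4A, TUBA8 and TUBAL3 being more divergent.

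The start of the coding sequence is shown because it encodes the residues read in autoregulation. The first 30 coding bases in GENCODE release 29 (GRCh38) follow, with the first 4 codons in capitals.
TUBA1A: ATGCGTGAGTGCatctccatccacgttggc
TUBA1B: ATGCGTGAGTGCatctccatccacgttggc
TUBA1C: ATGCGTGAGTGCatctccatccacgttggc
TUBA3D: ATGCGCGAGTGTatctctatccacgtgggg
TUBA4A: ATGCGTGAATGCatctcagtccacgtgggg
TUBA8: ATGCGGGAATGCatatcagtccacgtgggc
TUBAL3: ATGAGGGAGTGCctttccatccacatcggt
TUBA1A, TUBA1B and TUBA1C were identical over these bases. Counted from 1 at the A of the start codon and with TUBA1B as the reference, TUBA4A differed at 5 positions, 1 of them in the capitals (G9A). TUBA3D differed at 5 positions, TUBA8 at 6 and TUBAL3 at 7, with 2 in the capitals of each. The differences in the capitals do not change the encoded residues. In every member the capitals encode methionine, arginine, glutamate and cysteine.

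The last 33 bases of 5 members are shown because they hold the codon for the terminal residue, in capitals before the stop codon.
TUBA1C: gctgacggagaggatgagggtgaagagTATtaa
TUBA3D: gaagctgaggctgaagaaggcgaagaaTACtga
TUBA4A: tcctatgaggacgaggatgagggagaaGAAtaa
TUBA8: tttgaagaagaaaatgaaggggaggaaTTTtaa
TUBAL3: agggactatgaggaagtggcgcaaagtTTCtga
TUBA1C and TUBA3D end in a tyrosine codon, TUBA4A in a glutamate codon, and TUBA8 and TUBAL3 in a phenylalanine codon. Over the whole coding sequence TUBA1B was 97.2% identical to TUBA1A and 96.8% to TUBA1C, but 85.7% to TUBA4A, 80.8% to TUBA8 and 71.0% to TUBAL3. The likeness limits the measurement. Of all stretches of 100 bases in the transcript, 37.2% in TUBA1B, 18.3% in TUBA1A and 11.5% in TUBA1C also occurred in a transcript of another gene, mostly in each other. How the submitters divided such reads is not given in the sources used here, so the split of FPKM among these 3 genes is uncertain, and TUBAL3, with 0% shared, is free of this limit. For TUBA8 the share was 65.2%, all with transcripts annotated to PEX26.

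In GRCh38, TUBA1B (ENSG00000123416) lies on the minus strand at chr12:49127782-49131397 and overlaps the antisense gene AC011603.2 on the other strand. TUBA1A (ENSG00000167552) lies nearby on the minus strand at chr12:49184796-49189324, where its start overlaps the span of TUBA1C (ENSG00000167553), on the plus strand at chr12:49188736-49274603. The antisense genes AC010173.1 and AC125611.3 also overlap TUBA1C. TUBA4A (ENSG00000127824) lies at chr2:219249711-219278170 on the minus strand and overlaps STK16 and TUBA4B on the other strand. TUBA3D (ENSG00000075886) lies at chr2:131476093-131482934, TUBA8 (ENSG00000183785) at chr22:18110331-18146554 and TUBAL3 (ENSG00000178462) at chr10:5393098-5404830. On the other strand MZT2A overlaps TUBA3D and AC008079.1 overlaps TUBA8. Whether strand was used in counting is not given, so reads of genes overlapping on opposite strands cannot be told apart.

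The labels were checked before the comparisons. PTPN21 FPKM (a fragment count divided by gene length and by the library total) ranged from 0.0212 to 0.569 in the 6 NC libraries and from 4.34 to 10.5 in the 6 PTPN21 libraries, without overlap. The cell label was not borne out: of 12 T cell markers only CD3D and TAL1 had a mean of at least 1 FPKM. The markers LCK, CD247, CD28 and CD5 were listed at 0 in every library. The keratins KRT8 and KRT18 and EPCAM, markers of epithelial cells, had means of 578, 273 and 81.9 FPKM, and 8 of 8 hemoglobin and erythroid genes, chosen after their values were seen, had means of at least 1 in every group. The sums over these lists moved with VCR. Summed over 6 epithelial and stromal markers, FPKM was 387 to 588 with DMSO and 1154 to 1676 with VCR, and COL1A2 was listed at 0. The summed erythroid genes were at 1312 to 2136 in NC+DMSO and 3097 to 4277 in PTPN21+DMSO, against 904 to 945 in NC+VCR and 1105 to 1284 in PTPN21+VCR. The summed T cell markers were at 75.1 to 107 in NC+DMSO and 112 to 137 in NC+VCR. In PTPN21+DMSO the sum was 128 to 158 and in PTPN21+VCR 111 to 116. The sum was thus higher with VCR in NC cells and lower in PTPN21 cells, without overlap. It was mostly CD3D, which had a mean of 110 FPKM. TAL1 was lower with VCR in both cell types, at 11.3 to 16.5 FPKM with DMSO and 3.22 to 5.67 with VCR. Of 7 myeloid markers 3 had a mean of at least 1, with a sum of 39.99 to 64.8 with DMSO and 30.9 to 39.5 with VCR, while 0 of 6 B cell markers did. The part of these shifts in the tubulin results was not tested, and in bulk RNA fewer cells of a type and less RNA per cell cannot be told apart. Depth was estimated from the step size of low FPKM values, sought within a bounded range, so the estimates are approximate. They were 14500000 to 16400000 fragments in NC+DMSO and 16700000 to 18000000 in NC+VCR. In PTPN21+DMSO they were 22500000 to 23900000 and in PTPN21+VCR 20500000 to 22300000. The estimated depth thus varied together with the construct. Pearson's r of log2(FPKM + 1) among libraries of the same group lay between 0.939 and 0.976, and 3 libraries (NC+DMSO 2, NC+VCR 2 and NC+VCR 3) correlated more with a library of another group than with any of their own.

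Alpha-tubulin RNA came mostly from TUBA1B, TUBA1C and TUBA1A, with TUBA4A at 3.13 to 8.19% of the summed FPKM. On the FPKM scale, which is per length, TUBA1B was the most abundant in every group with a mean over 12 libraries of 232 FPKM, followed by TUBA1C with 84.2, TUBA1A with 33.3, TUBA4A with 17.2 and TUBAL3 with 3.96. TUBA1B ranked 333 among all genes by mean FPKM. The order of the group means was the same in all 4 groups, but TUBA1A and TUBA4A overlapped in PTPN21+DMSO and TUBA1C and TUBA1A in PTPN21+VCR, so these neighbours did not differ beyond their spread there.

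TUBA3D and TUBA8 were at or near 0. TUBA3D, a form known mainly from testis, was above 0 in 1 library only, PTPN21+DMSO 1, at 0.0574 FPKM, which is about 2.04 fragments at the estimated depth. TUBA8 was above 0 in 4 libraries, at 0.300 FPKM in NC+DMSO 2, 0.0295 in NC+DMSO 3, 0.302 in PTPN21+DMSO 3 and 0.196 in NC+VCR 1. No group had either gene in all of its libraries, and neither reached the mean of 1 FPKM needed for the test. The other 5 of 7 members were tested, among 11591 genes.

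**Figure D1:**
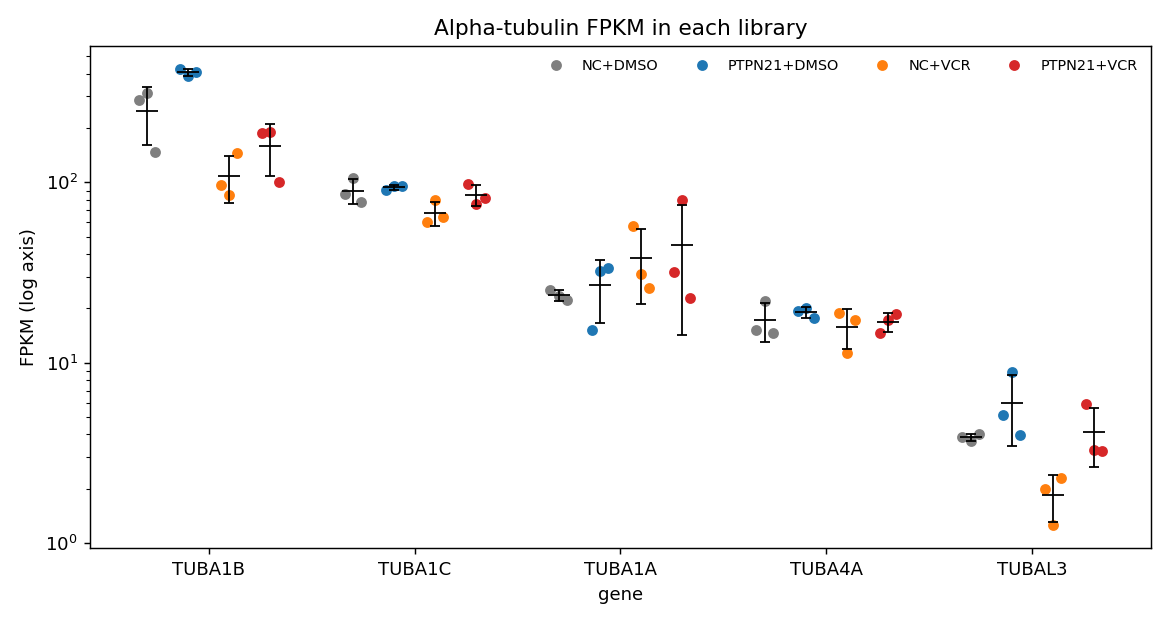
FPKM of the 5 tested alpha-tubulin genes (log axis), each point 1 library, coloured by group, with the mean as a long bar and the SD as an error bar (n = 3). The 6 VCR libraries lie between 84.6 and 191 FPKM for TUBA1B, while TUBA4A stays between 11.4 and 22.1 in all 12 libraries.

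TUBA1B, the main alpha-tubulin, was lower with VCR in both cell types. In NC+DMSO it had 286, 314 and 148 FPKM in libraries 1, 2 and 3, and in NC+VCR 96.1, 84.6 and 145. In PTPN21+DMSO it had 426, 390.2 and 410.3 FPKM, and in PTPN21+VCR 189, 191 and 100.2. All VCR libraries of a cell type lay below all its DMSO libraries, although by little between NC+DMSO 3 and NC+VCR 3. The mean fell from 249 ± 88.8 (SD, n = 3) to 109 ± 32.0 FPKM in NC cells and from 409 ± 17.8 to 160.0 ± 51.8 FPKM in PTPN21 cells.

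Across all genes the values were tested as log2(FPKM + 1) with limma and Benjamini-Hochberg adjustment over all 11591 genes, on which changes at low FPKM come out smaller than they are. In NC cells TUBA1B changed with VCR by a log2 fold of -1.16 (standard error 0.305, adjusted p = 0.0118), and in PTPN21 cells by -1.41 (standard error 0.305, adjusted p = 0.00502). The call in PTPN21 cells held under 22 of 22 other settings, with a log2 fold change between -1.56 and -1.10. Of these settings 12 each left out 1 library. Leaving out a library from outside the compared groups cannot change the log2 fold change, only its p, here and for the members below. The call in NC cells held under 21 of 22 and was lost under median ratio scaling, where the log2 fold change was -0.76 and the adjusted p 0.103. Without NC+DMSO 3, the lowest control library, the log2 fold change in NC cells was -1.49.

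TUBA1C, a second widely expressed form, moved less. It had 86.5, 106 and 77.7 FPKM in NC+DMSO and 59.9, 79.4 and 64.0 in NC+VCR. In PTPN21 cells it had 90.9, 95.2 and 95.9 FPKM with DMSO and 97.4, 75.9 and 82.0 with VCR. The groups overlapped in both cell types, in NC cells through NC+VCR 2 and NC+DMSO 3. The change in NC cells was -0.40 on the log2 scale (standard error 0.147, adjusted p from limma 0.0497), close to the median of all genes and at the edge of the threshold, and it passed under 5 of 22 other settings and after leaving out 2 of 12 libraries. Under median ratio scaling it was -0.0060. In PTPN21 cells it was -0.15 (95% interval -0.47 to 0.17, limma adjusted p = 0.486), and the sign turned under median ratio scaling (0.034) and quantile normalization (0.0078).

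TUBA1A had higher mean values with VCR but a wide spread. Its FPKM was 25.3, 23.4 and 22.2 in NC+DMSO against 57.4, 31.1 and 25.8 in NC+VCR. In PTPN21 cells it was 15.1, 32.1 and 33.5 with DMSO and 31.9, 79.4 and 22.8 with VCR. The NC groups did not overlap, although NC+DMSO 1 and NC+VCR 3 were close, and the PTPN21 groups did. The log2 fold change was 0.59 (95% interval -0.34 to 1.51, limma adjusted p = 0.299) in NC cells and 0.59 (95% interval -0.34 to 1.52, limma adjusted p = 0.327) in PTPN21 cells, so neither passed the test. NC+VCR 1 and PTPN21+VCR 2 were the highest libraries, and without them the log2 fold changes were 0.25 and 0.085.

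TUBA4A was not called with VCR in either cell type. It had 15.1, 22.1 and 14.6 FPKM in NC+DMSO and 18.9, 11.4 and 17.1 in NC+VCR, and 19.5, 20.03 and 17.6 in PTPN21+DMSO and 14.6, 17.3 and 18.6 in PTPN21+VCR. All groups overlapped. With VCR the log2 fold change was -0.12 (95% interval -0.58 to 0.33) in NC cells and -0.17 (95% interval -0.63 to 0.28) in PTPN21 cells, with limma adjusted p of 0.661 and 0.571.

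TUBAL3, the most divergent member and the one without shared stretches, had 3.87, 3.68 and 4.003 FPKM in NC+DMSO and 1.999, 1.25 and 2.28 in NC+VCR. The NC groups did not overlap. The log2 fold change in NC cells was -0.79 (standard error 0.284, limma adjusted p = 0.0469), which passed under 7 of 21 other settings and after leaving out 3 of 12 libraries. In PTPN21 cells it had 5.13, 8.90 and 3.99 FPKM with DMSO and 5.87, 3.28 and 3.25 with VCR, groups that overlapped, and the log2 fold change was -0.43 (95% interval -1.04 to 0.19, limma adjusted p = 0.290).

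In NC cells VCR thus gave 3 of 5 tested members lower and 0 higher, beside 28.3% of all genes called lower and 7.91% called higher (36.2% called in all). The groups did not overlap for 3 of 5 members, beside 44.1% of all genes. The median log2 fold change was -0.40 over the 5 members and -0.36 over all genes, so a fall of this size was common in the table. This direction of the table depended on scaling. Of the genes called, 21.9% were higher with the FPKM left as they are and 56.9% after median ratio scaling, which brought the median of all genes to -0.027. With the FPKM left as they are, TUBA1B and TUBAL3 lay below the median of all genes (-0.36) and TUBA1C lay close to it. The 95% interval of TUBAL3 (-1.41 to -0.17) included that median, while that of TUBA1B (-1.82 to -0.49) did not. In PTPN21 cells 1 of 5 members was lower, TUBA1B, beside 19.3% of all genes lower, 9.22% higher and 28.5% in all. The groups did not overlap for 1 of 5 members, beside 50.4% of all genes, and the median was -0.17 over the members and -0.17 over all genes. The share of called genes that were higher there was 32.3% and, after median ratio scaling, 51.5%.

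**Figure D2:**
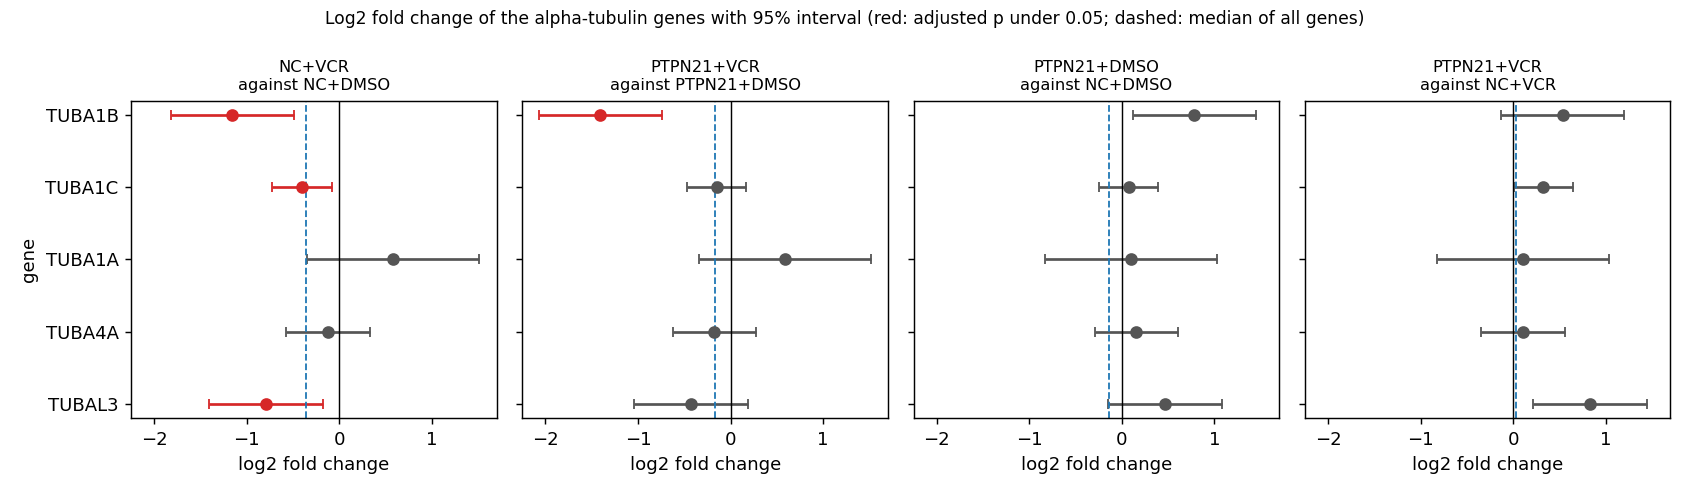
Log2 fold change (x axis) of the 5 tested alpha-tubulin genes in 4 comparisons from limma on log2(FPKM + 1), with 95% intervals, red where the adjusted p was under 0.05, and a dashed line at the median of all genes. TUBA1B is at -1.16 and -1.41 in the VCR comparisons, while the intervals of TUBA4A include 0 in all 4.

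The make-up of the alpha-tubulin RNA shifted with these changes. Summed over the 7 members, FPKM was 266 to 469 in NC+DMSO, 208 to 254 in NC+VCR, 546 to 562 in PTPN21+DMSO and 227 to 367 in PTPN21+VCR. In both cell types every VCR library had a lower sum than every DMSO library. TUBA1B made up 55.6 to 68.6% of the sum in NC+DMSO and 40.8 to 57.0% in NC+VCR, groups that overlapped through NC+DMSO 3 and NC+VCR 3. In PTPN21 cells its share was 71.4 to 76.5% with DMSO and 44.2 to 55.7% with VCR, without overlap. The share of TUBA1A was 4.99 to 8.32% in NC+DMSO and 10.2 to 24.5% in NC+VCR, and 2.71 to 5.96% in PTPN21+DMSO and 9.43 to 21.6% in PTPN21+VCR, without overlap in either cell type. These shares are set by the levels above and are a description of them, and a fall of TUBA1B raises the other shares. TUBA1A itself was not called with VCR in either cell type. The shares of TUBA1A, TUBA1B and TUBA1C also carry the uncertainty of the read split. Of all tested genes, 44.1% in NC cells and 50.4% in PTPN21 cells did not overlap between VCR and DMSO either.

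**Figure D3:**
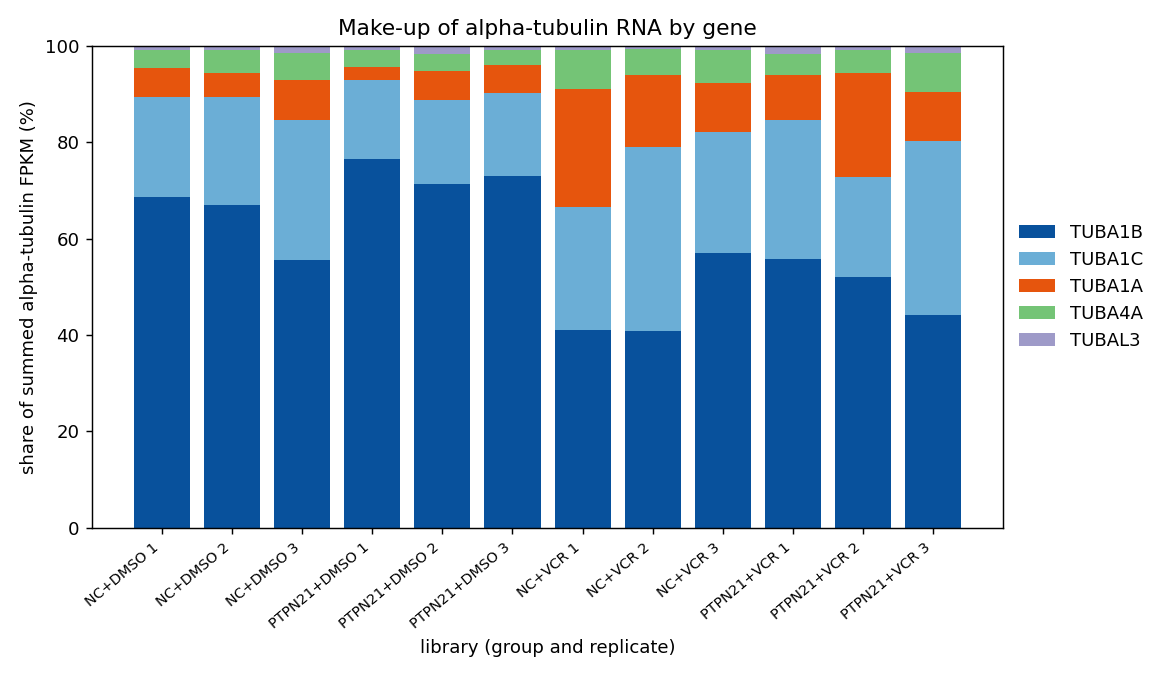
Share (%) of the summed alpha-tubulin FPKM that each gene held in each of the 12 libraries, as stacked bars. TUBA3D and TUBA8, under 0.1% in every library, are not drawn. The TUBA1B share is 71.4 to 76.5% in PTPN21+DMSO and 40.8 to 57.0% in the VCR libraries.

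Within a library, the ratio of TUBA1B to TUBA1A does not depend on the scaling of that library. It was 6.68 to 13.4 in NC+DMSO and 1.68 to 5.61 in NC+VCR. In PTPN21+DMSO it was 12.2 to 28.2 and in PTPN21+VCR 2.41 to 5.91. In both cell types the VCR libraries lay below the DMSO libraries and did not overlap with them. Of single genes, 44.1% in NC cells and 50.4% in PTPN21 cells did not overlap either. The difference in the ratio was not tested, since 3 libraries against 3 cannot give an exact two-sided p below 0.1. The ratio of TUBA1B to TUBA1C was 1.91 to 3.30 in NC+DMSO and 1.07 to 2.27 in NC+VCR, which overlapped, and 4.10 to 4.69 in PTPN21+DMSO and 1.22 to 2.52 in PTPN21+VCR, which did not. Since the 3 genes share stretches of sequence, these ratios carry the uncertainty of the read split.

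PTPN21 overexpression alone called 0 of 5 members in limma, beside 6.34% of all genes. An unadjusted p under 0.05 was reached by 1 of 5, beside 25.6% of all genes, a share near that background. That member was TUBA1B, with a log2 fold change of 0.78 (95% interval 0.12 to 1.45, adjusted p = 0.133). Its 3 PTPN21+DMSO libraries all lay above the 3 NC+DMSO libraries, and it was the only member of 5 without overlap, beside 33.4% of all genes. Without NC+DMSO 3 the log2 fold change was 0.45. The other members lay between 0.074 (TUBA1C) and 0.47 (TUBAL3). PTPN21+DMSO is in this comparison a test group and in the VCR comparison of PTPN21 cells the control, so the value above enters both with opposite sign.

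Under VCR, PTPN21 cells against NC cells called 0 of 5 members in limma, beside 1.82% of all genes. An unadjusted p under 0.05 was reached by 2 of 5, beside 17.1% of all genes. These were TUBAL3, with a log2 fold change of 0.83 (95% interval 0.21 to 1.45, adjusted p = 0.153), and TUBA1C, with 0.33 (95% interval 0.0070 to 0.65, adjusted p = 0.282). For TUBAL3 every PTPN21+VCR library lay above every NC+VCR library, and it was the only member of 5 without overlap, beside 22.5% of all genes. TUBA1B was 0.53 higher on the log2 scale (95% interval -0.13 to 1.20, limma adjusted p = 0.407), with PTPN21+VCR 3 inside the NC+VCR range.

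Whether the response to VCR differed between the cell types was tested with the interaction term. It called 0 of 5 members in limma, beside 0.129% of all genes, and an unadjusted p under 0.05 was reached by 0 of 5, beside 14.0% of all genes. For TUBA1B the difference of the log2 fold changes (PTPN21 minus NC) was -0.25 with a 95% interval of -1.19 to 0.69, and for TUBAL3 it was 0.36 with an interval of -0.51 to 1.24. For TUBA1A it was 0.0075 with an interval of -1.31 to 1.32. The intervals are wide, and calls in NC cells that were not made in PTPN21 cells are not shown to differ between them.

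**Figure D4:**
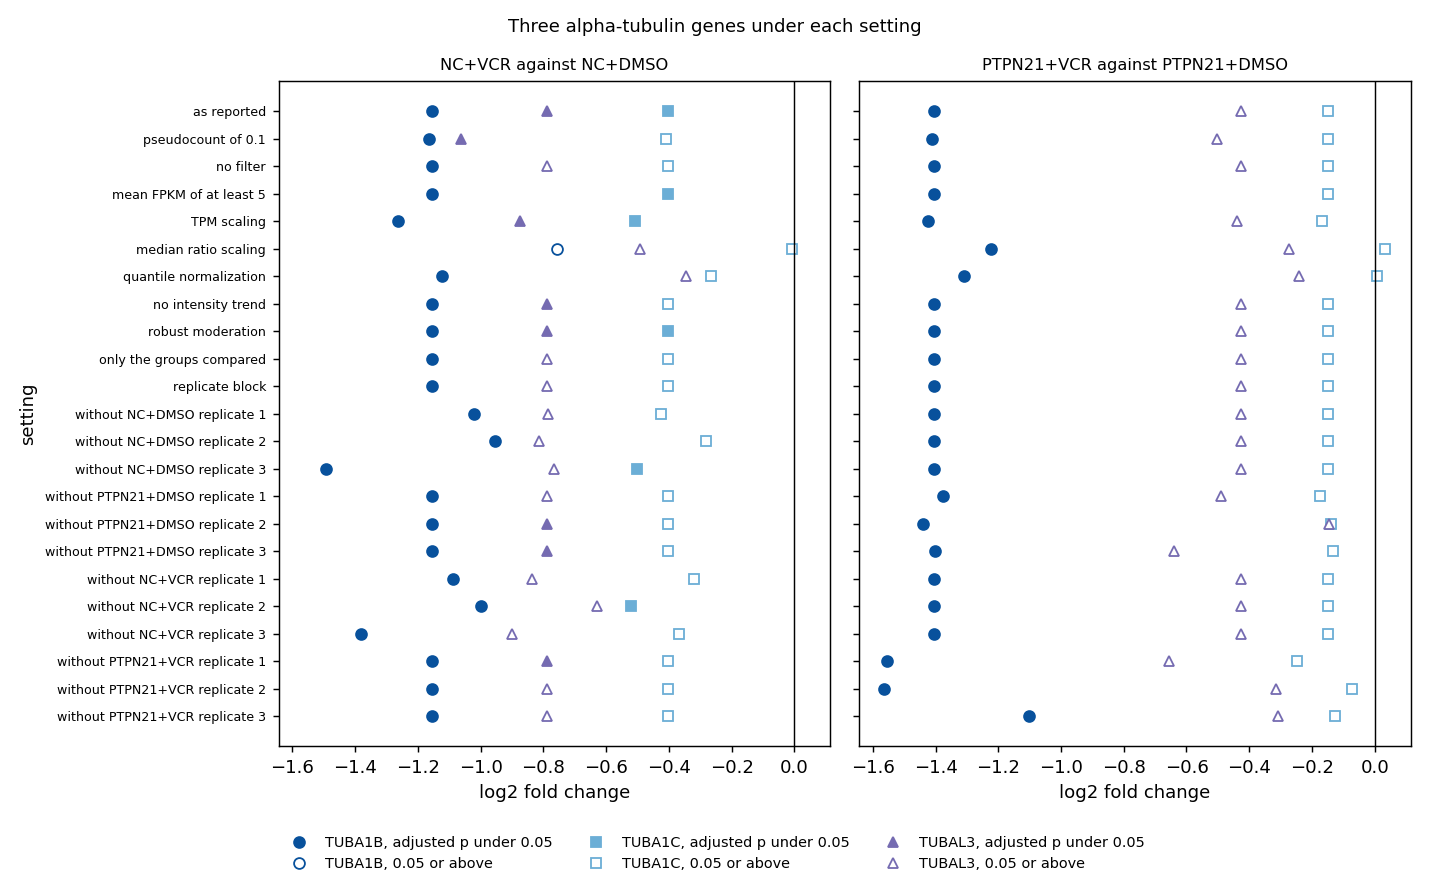
Log2 fold change (x axis) of TUBA1B, TUBA1C and TUBAL3 with VCR under each analysis setting (y axis) in NC cells (left) and PTPN21 cells (right), filled where the limma adjusted p was under 0.05. TUBA1B is filled in all but 1 row on the left, median ratio scaling at -0.76, and in all rows on the right.

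The members did not vary together as 1 group over the 12 libraries. Pearson's r of log2(FPKM + 1) was 0.70 between TUBA1B and TUBA1C and 0.74 between TUBA1B and TUBAL3, while TUBA1A had an r of -0.40 to -0.042 with the other 4. The libraries share groups, depth and composition, so these values are descriptions only. The genes most like TUBA1B among those tested were DTYMK, thymidylate kinase of nucleotide synthesis (r = 0.961), DGCR6L (0.956) and THAP1 (0.956). For TUBA1C they were AL021807.1 (0.940), COMMD4 (0.910) and RAB5IF (0.905), and for TUBAL3 ANAPC16 (0.924), AC093788.1 (0.893) and LINC01667 (0.892). For TUBA4A they were ARHGEF39 (0.918), CCDC24 (0.915) and UBL7 (0.894), and TUBA1A had the lowest values, with RPL36A-HNRNPH2 (0.864), DPH3 (0.855) and COPG2 (0.834).

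Of 26 enzymes that modify alpha-tubulin and their partners, 11 were tested. With VCR in NC cells 5 were lower and 0 higher, beside 28.3% and 7.91% of all genes (median log2 fold change -0.63, beside -0.36 over all genes). The largest fall was that of AGBL5, which removes branching glutamates from tubulin, at -1.96 (limma adjusted p = 6.2e-05). TTLL5, a glutamylase, was at -1.41, SVBP, the partner of the vasohibins that remove the terminal tyrosine, at -1.31 and HDAC6, a tubulin deacetylase, at -1.31. The other was TTL, which adds the tyrosine back, at -1.28 (limma adjusted p = 0.0124), a call lost under quantile normalization (adjusted p = 0.0677). In PTPN21 cells 3 were lower and 0 higher, SVBP (-1.26), AGBL5 (-1.30) and TPGS2 (-0.81), beside 19.3% of all genes lower. TPGS2, named after its values were seen, lost its call under median ratio scaling (adjusted p = 0.105) and quantile normalization (adjusted p = 0.114). HDAC6 was also lower in PTPN21+DMSO than in NC+DMSO (-1.001, limma adjusted p = 0.0305), the only call of the list in that comparison and one lost under median ratio scaling (adjusted p = 0.0673).

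Of the 6 autoregulation genes, all tested, 3 were lower and 0 higher with VCR in NC cells, beside 28.3% and 7.91% of all genes. TTC5 was at -1.30 (limma adjusted p = 0.00581), and CNOT10 and CNOT1, subunits of CCR4-NOT, at -0.62 and -0.55. Under median ratio scaling TTC5 stayed lower and SCAPER was called higher (0.69), and under quantile normalization SCAPER (0.80) was the only call. In PTPN21 cells 0 of 6 were called in either direction, beside 28.5% of all genes, with a median of -0.23 beside -0.17 over all genes.

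Of the folding and dimer-handling genes, 9 rows were tested and in NC cells 1 was higher and 2 were lower, beside 7.91% and 28.3% of all genes. TBCA, a cofactor of beta-tubulin folding, rose by 0.51 (limma adjusted p = 0.0124). ARL2, a regulator of the tubulin cofactors, was at -1.01 and STMN3, a stathmin that binds tubulin dimers, at -1.34. In PTPN21 cells 1 was higher and 2 were lower as well, TBCA at 0.70, ARL2 at -1.02 and STMN3 at -1.23. The balance in NC cells depended on scaling. Under median ratio scaling 3 were higher and 1 lower, since the ARL2 call was lost (adjusted p = 0.0666) and TBCC (0.60) and STMN1 (0.66), named after their values were seen, were called higher.

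The other tubulins, mostly the beta-tubulins that pair with the members, moved in both directions. Of 11 tested, 3 were higher and 5 lower with VCR in NC cells, beside 7.91% and 28.3% of all genes. The count of lower genes was 3 under median ratio scaling, where TUBB4A (adjusted p = 0.0902) and TUBB4B (adjusted p = 0.0631), named after their values were seen, lost their calls. TUBB2B and TUBB2A, beta-tubulins, rose by 2.23 and 1.98, from means of 8.68 and 13.3 FPKM to 44.1 and 55.5, and TUBB6 rose by 1.26. TUBB1, the platelet form, was at -1.67, from a mean of 3.92 FPKM in NC+DMSO. TUBB, named after its values were seen, had the highest FPKM of the list and was among the lower genes. It was at -0.88 (limma adjusted p = 6.6e-05), with means of 319 FPKM in NC+DMSO and 173 in NC+VCR. In PTPN21 cells 3 were higher and 4 lower, beside 9.22% and 19.3% of all genes. The higher genes were TUBB2B (2.20), TUBB2A (1.999) and TUBB3 (1.95), the last named after its values were seen. TUBB was among the lower genes at -0.95 (limma adjusted p = 3.8e-05), with means of 351 FPKM in PTPN21+DMSO and 182 in PTPN21+VCR. TUBB6 was not called there and had the opposite sign (-0.90, limma adjusted p = 0.118). Its interaction term was -2.16 (limma adjusted p = 0.169) and was not called. The interaction called 0 genes among the enzymes, the autoregulation genes, the folding genes and the other tubulins, beside 0.129% of all genes. Calls in these lists made in only 1 cell type are therefore not shown to differ between the cell types.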

How the data were processed

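RNA-seq of 12 libraries was analysed from one table of FPKM values that the authors deposited, made by an external company. The submitters' processing notes name fastp, Bowtie2 and the mouse build mm10, while the gene identifiers are human, and 96.3% of them are in GENCODE release 29. The counting program and annotation are not given in the sources used here. The series text calls the sequencing tag profiling, and FPKM assumes reads along the whole gene.

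The members and gene lists were chosen with earlier results of these data known. Genes averaging at least 1 FPKM over the libraries were kept, and log2(FPKM + 1) was fitted with limma 3.58.1 in R 4.3.3, with an intensity trend, as 4 group means, with adjustment over 11591 genes and a threshold of 0.05. The code was tested on simulated data. From each list the text names up to 4 called genes with the largest change in NC+VCR against NC+DMSO, and the 3 genes most correlated with each tested member. Depth rests on the step in FPKM times length of 8706 single-exon genes, sought within a bounded range of steps. Between 31.2% and 43.2% of low values lay near a whole step, and some would do so by chance. The estimate cannot fall outside that range and cannot tell a step of 1 fragment from one of 2. Sequences were read from GENCODE with Biopython 1.88. The coding ends of the remaining members are not reported here. Tables and plots used pandas 2.3.3, numpy 2.4.6 and matplotlib 3.10.9. No value column was left unmatched. Alternatives changed the pseudocount, filter, scaling, moderation, groups fitted, replicate block and libraries.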

Additional observations from a re-analysis of the deposited data

How the results depend on the processing

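Of 540 values of a log2 fold change under an alternative, 477 kept their direction and side of the threshold, 32 lost a call, 0 gained one and 31 turned their sign, the latter only for values that were not called. The 32 lost calls were TUBA1B in 1, TUBA1C in 17 and TUBAL3 in 14, all in NC+VCR against NC+DMSO. The count of members called there was 3 as reported, 1 without a filter, 0 under median ratio scaling, 1 under quantile normalization, 1 with only the groups compared, and 1 to 2 when each library was left out. The causes were not tested. TUBAL3 gave no value under the stricter filter (mean of 5 FPKM), and the interaction could not be fitted with only the groups compared.

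The count of all genes called in PTPN21+DMSO against NC+DMSO was 735 as reported, 177 without a filter, 321 without the intensity trend, 43 with only the groups compared and 54 to 1347 when each library was left out (1347 without NC+DMSO 2, 54 without PTPN21+DMSO 1). In PTPN21+VCR against NC+VCR it was 211 as reported, 118 without a filter, 344 under the stricter filter, 130 under median ratio scaling, 72 without the trend and 43 to 357 when each library was left out (43 without PTPN21+VCR 2, 357 without NC+DMSO 3). For the interaction it was 15 as reported, 8 without a filter, 8 under the stricter one, 28 under TPM scaling, 9 without the trend and 7 to 30 when each library was left out. For VCR in NC cells the count was 4192, and 2626 with only the groups compared. The share of called genes that were higher in PTPN21+DMSO against NC+DMSO was 41.8% as reported, 20.5% under TPM scaling and 75.9% under median ratio scaling.

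Same-numbered libraries of different groups did not deviate together (r of -0.145 to 0.0583 over 18 pairs, 0 above 0.1). These values gave no sign of pairing by replicate number, but they cannot show that no culture or day was shared. With a replicate block 1 member was called in NC+VCR against NC+DMSO, TUBA1B, and all genes called were 242 in PTPN21+DMSO against NC+DMSO, 74 in PTPN21+VCR against NC+VCR and 8 for the interaction.

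Signs turned under TPM scaling for TUBA1A (-0.041) and TUBA1C (-0.073) between the DMSO groups, and for the interaction of TUBA4A (0.034). With VCR in NC cells TUBA4A was 0.25 after median ratio scaling and 0.22 after quantile normalization. With VCR in PTPN21 cells TUBA1C was 0.034 and 0.0078 and TUBA4A 0.0016 and 0.011 under these settings, and the TUBA1A interaction was -0.20 and -0.12. When each library was left out, the interaction ranged from -0.50 to 0.38 for TUBA1A, from -0.45 to 0.088 for TUBA1B and from -0.26 to 0.087 for TUBA4A. TUBA4A ranged from -0.26 to 0.082 in NC+VCR against NC+DMSO and from -0.099 to 0.24 in PTPN21+VCR against NC+VCR. TUBA1A ranged from -0.092 to 0.46 in PTPN21+DMSO against NC+DMSO and from -0.40 to 0.48 in PTPN21+VCR against NC+VCR, and TUBA1C from -0.025 to 0.19 in PTPN21+DMSO against NC+DMSO.

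With 3 libraries against 3, an exact test of a single value cannot give a two-sided p below 0.1. Depth limits the low members: TUBA3D and TUBA8 were not detectable in most libraries at the estimated depth, and the split of reads among TUBA1A, TUBA1B and TUBA1C was not tested.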

Other observations

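The table holds 9 further rows named for alpha-tubulin, of which 5 were listed at 0 in all libraries (TUBA3C, TUBA3GP, TUBA4B, TUBAP and TUBAP4). The other 4 stayed low. TUBA3FP, a pseudogene, reached 3.53 FPKM, TUBAP5 2.35, TUBAP2 0.773 and TUBA3E, the close relative of TUBA3D, 0.243. The values of TUBAP5 were looked at after its level was seen: it had 0.0635, 0.804 and 0.293 FPKM in NC+DMSO, 1.62, 1.44 and 2.35 in PTPN21+DMSO, 0 in each NC+VCR library, and 0, 0.641 and 0 in PTPN21+VCR. With VCR in both cell types these groups did not overlap, beside 44.1% of the tested genes in NC cells and 50.4% in PTPN21 cells. In NC cells this rested on 0.0635 FPKM in NC+DMSO 1, near the floor, against 0. The row did not reach the mean of 1 FPKM and was not tested.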
